A study of Homo sapiens with 10 samples.

Results

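Hepatocyte growth factor (HGF) was given for 6 h to cells of the human melanoma line MDA-MB-435, and RNA levels were set against those of untreated cells of the same line. The comparison rests on 4 of the 10 arrays of the series, the 2 labelled with 6 h of HGF and the 2 labelled untreated, which were chosen by their labels alone. A further 6 arrays were 2 each for HGF at 1 h, HGF at 24 h and transduction with ITGB4, an integrin subunit. They entered the joint normalisation, the probe filter, the choice of each gene's brightest probe and the estimate of the spread. All cells were kept under standard growth conditions, and the HGF dose is not given in the sources used here. The design text calls the 2 arrays of a group biological duplicates, and p-values therefore measure the spread between such duplicates of a single cell line.

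HGF is a secreted ligand of the MET receptor tyrosine kinase, which signals through the RAS-ERK and PI3K-AKT pathways. In epithelial and melanoma cells this signal is known to promote growth, survival and migration. Within hours, growth factor signals of this kind are known to act on ribosome production, on amino acid use and on the transcription factors that hold cells in a resting state, and the results are ordered along these processes.

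On these 4 arrays 10593 to 11722 probes were detected, and a probe was read from 26 to 32 beads in the median. HGF 6 h replicate 1 had the fewest detected probes of the 4. The 2 replicate 1 arrays differed from the 2 replicate 2 arrays in their detection scores, with a 25th percentile of 0.0199 and 0.0225 against 0.291 and 0.388, so each difference is also given within the replicate 1 arrays and within the replicate 2 arrays. The cells carried melanocyte markers, since 8 of the 10 lineage markers on the array were detected on all 4 arrays. Of the 12 epithelial and breast markers on the array, 6 were detected on none of them, namely CDH1, EPCAM, KRT19, ESR1, PGR and GATA3. Another 3, the keratins KRT7, KRT14 and KRT18, were detected on all 4. The summed signal of the 12 was 1251 and 1274.2 untreated and 1352.7 and 1518.8 at 6 h. The summed signal of the melanocyte markers was 27430.5 and 24312.2 on the untreated arrays and 18656.3 and 17654.1 on the HGF 6 h arrays. Of the fibroblast and endothelial markers 3 of 11, and of the immune markers 1 of 8, were detected on all 4 arrays. The summed signals were 1530.8 to 1591.2 untreated and 1250.4 to 1374.9 at 6 h for the first class, and 600 to 637.3 and 640.9 to 687.3 for the second, and their part in the results was not tested.

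After 6 h of HGF, ribosome assembly factors stood higher as a group (15 of 72 rose, 0 fell), while genes of the ATF4 axis (11 of 42 fell, 1 rose) and FOXO- and quiescence-linked genes (9 of 34 fell, 0 rose) stood lower. Over all genes measured, 1.15% were called higher and 1.07% lower by their brightest probe. These shares stand beside every list count here and below, and 1 or 2 calls in a list say little about its members. The lists were chosen with earlier results of these data known, so their counts are a description and not a test. MAT2A, which makes S-adenosylmethionine, had the largest rise, 4 metallothionein and zinc transport genes rose, ERK output genes went both ways, and 3 MYC antagonists fell. Of 14018 probes kept, 267 (1.9%) passed the test (limma, adjusted p under 0.05), 136 (0.97%) higher and 131 (0.935%) lower. They stood for 240 genes, 126 higher and 114 lower, and 25 of the probes carried no gene symbol. Differences of called probes ran from 0.64 to 1.91 in size on the log2 scale, and 41 rises and 48 falls reached 1. The split between directions moved with the scaling. Higher probes were 50.9% of the calls after quantile normalisation, 17.1% of 246 after median centring, 35.3% of 51 after normexp background correction and 64.3% of 266 in the value table that the authors normalised, in which the median over all probes was 0.17 rather than 0.01. The 72 called genes named by rule kept their direction under each alternative tried, except that 62 of them were tested where probes had to be detected on all 4 arrays. The calls rested on each of the 4 arrays, since limma called 28 probes without untreated replicate 1, 1 without untreated replicate 2, 4 without HGF 6 h replicate 1 and 0 without HGF 6 h replicate 2. Without either HGF 1 h array 175 were called, and without either HGF 24 h array 490.

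**Figure D1:**
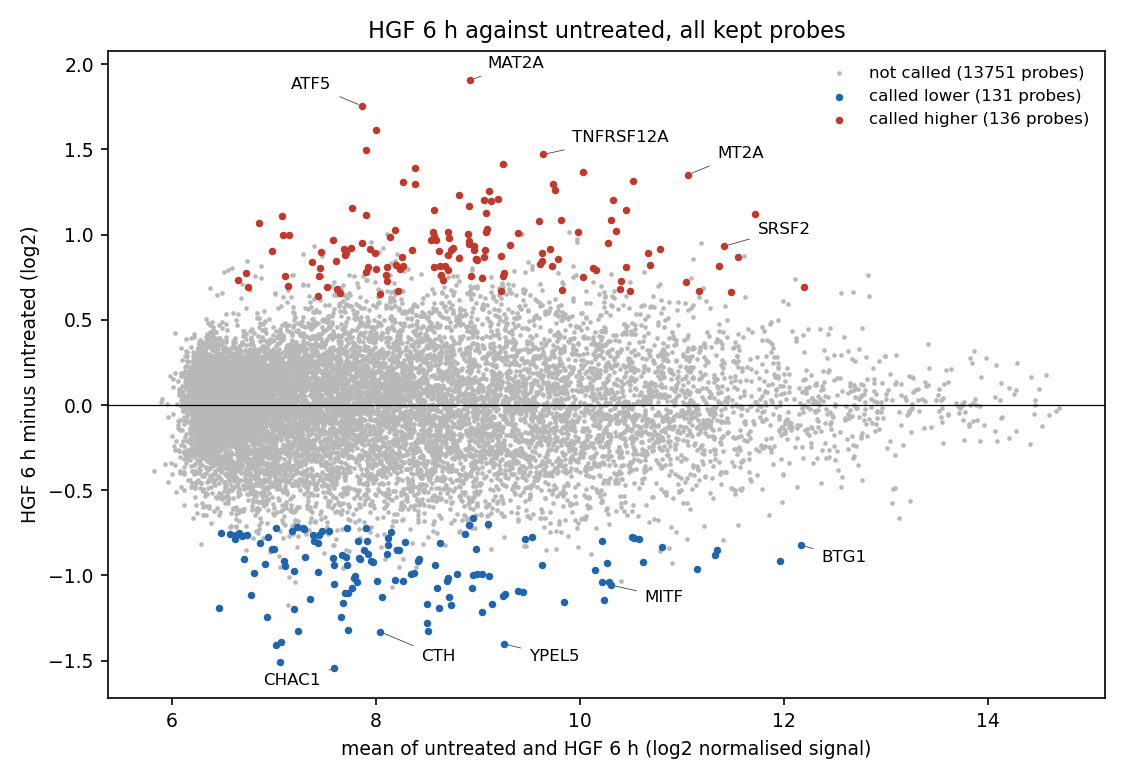
Each point is a probe, plotted by the mean of its untreated and HGF 6 h levels (log2 normalised signal) and by the HGF 6 h minus untreated difference (log2), with the 136 probes called higher in red and the 131 called lower in blue. Calls lie at differences of 0.64 or more in size, the extremes being MAT2A at 1.91 and CHAC1 at -1.55, and few dim probes were called.

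Dim probes contributed few calls. With the kept probes split by mean signal into 4 bins of equal size, 0.143% were called in the dimmest (50.2 to 97), against 1.11%, 3.65% and 2.71% in the next 3. The 2 HGF 6 h arrays lay wholly above or wholly below the 2 untreated arrays for all 267 called probes, and so they did for 44.6% of all kept probes, so that separation of the groups by itself said little. Placed against all other 8 arrays, which include the groups the call did not compare, both HGF 6 h arrays were beyond every other array for 129 of the 136 probes called higher and 125 of the 131 called lower. Over all kept probes 8.6% lay above and 11.1% lay below all other 8 arrays.

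Groups that do not overlap give the same sign within the replicate 1 arrays and within the replicate 2 arrays, so the same sign in both for all 267 called probes adds nothing to the call. Of all kept probes 69.6% had the same sign in both, and the 2 sets of differences had a Pearson correlation of 0.68 across probes, which are not independent replicates. A difference of at least 1 in both pairs, in the same direction, was found for 52 probes, 50 of which were called, and 0 probes reached 1 in opposite directions. CEMIP, a hyaluronan-degrading protein, differed most in size between the pairs among the genes with the largest rises, with signals of 288.5 and 298 untreated and 482.9 and 983.2 at 6 h. Its rise was 0.74 within replicate 1 and 1.72 within replicate 2. The stress sensor SESN2 fell by 0.89 within replicate 1 and by 1.75 within replicate 2. Genes with opposite differences in the pairs did not pass the test. IDH1, a cytosolic isocitrate dehydrogenase, read 1862.3 and 1013.1 untreated and 1338 and 1336 at 6 h, a spread that lay in the untreated arrays. RAB3A, a vesicle GTPase, read 629.1 and 917.7 untreated and 849.8 and 648.6 at 6 h, SLC11A2, an iron transporter, 1082.5 and 700.6 against 828.7 and 912.3, METRN, a secreted protein, 401.4 and 631.4 against 513 and 478.1, and ARMC8 103.9 and 134.4 against 133 and 103.1.

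**Figure D2:**
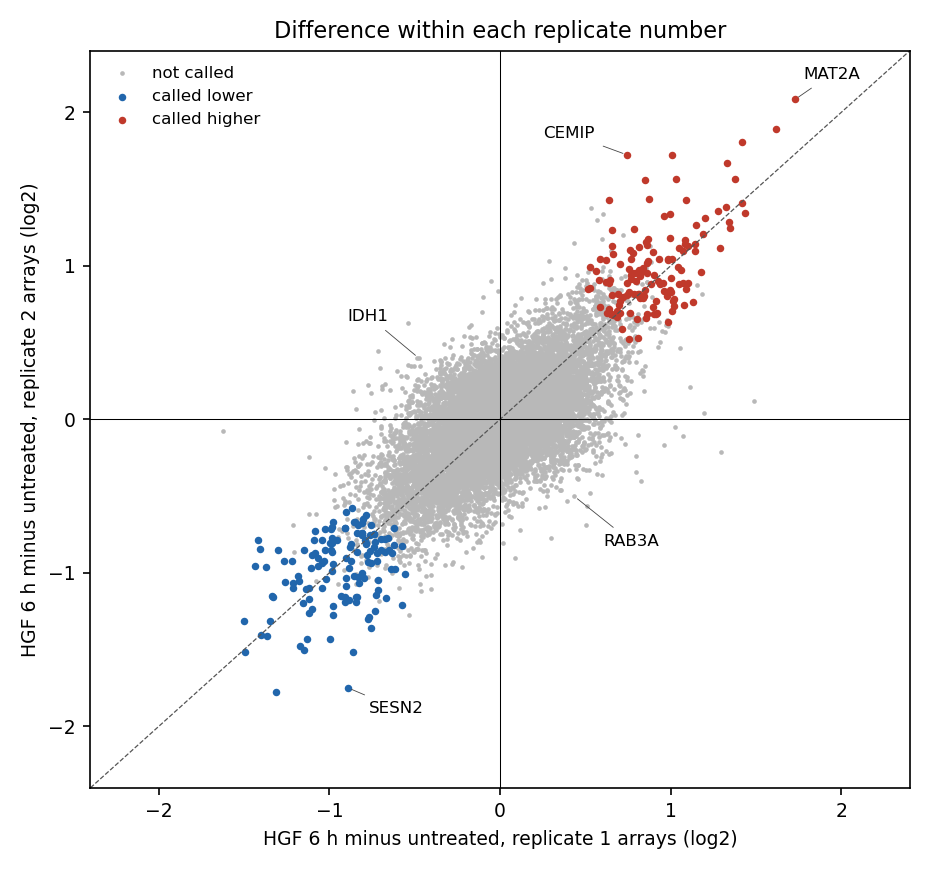
Each point is a kept probe, with the HGF 6 h minus untreated difference (log2) of the replicate 1 arrays on the horizontal axis and of the replicate 2 arrays on the vertical axis, and a dashed line of equal differences. All 267 called probes have the same sign on both axes, which groups that do not overlap fix, CEMIP and SESN2 lie off the line, and IDH1 and RAB3A lie where the signs are opposite.

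Genes of the MET receptor, its adaptors and the HGF activators held no call at the RNA level, and the RNA of the ligand was not detected. The receptor MET read 106.9 and 84.4 untreated and 112.1 and 107.9 at 6 h, so that it lay at the edge of detection and the groups hardly separated. Its difference was 0.21 on the log2 scale with a standard error of 0.19 (limma, adjusted p = 0.70). Over 14 other settings, those with 1 array left out aside, the difference ran from 0.21 to 0.96, and limma called MET in 0 of them. Values after ± are standard errors of log2 differences from the fit throughout, with 2 arrays in each group. The ligand's own RNA (signals 53.2 to 69.2) passed the detection limit on 0 of the 10 arrays. ITGB4, which was transduced in another group, read 60.4 to 63.9 on these 4 arrays and was detected on none of them (0.01, adjusted p = 0.99). Of 24 measured genes of the MET receptor, its adaptors and the HGF activators, limma called 0, 4 had an unadjusted p under 0.05, and the median difference was 0.04, against -0.00 over all 10599 genes measured, of which 122 were called higher and 113 lower by their brightest probe. GAB2, an adaptor that docks to MET, had the lowest value of this list (-0.70, adjusted p = 0.057).

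Genes under ERK, the kinase cascade below MET and RAS, went both ways. The list of ERK feedback and output held 37 measured genes, with a median of 0.19 (0.12 to 0.47 over 25 settings). Of these genes 6 rose (16.2%, against 1.15% of all genes measured) and 2 fell (5.41%, against 1.07%). TMEM158, a membrane protein induced by RAS, read 150.6 and 134.8 untreated and 377.7 and 428.6 at 6 h, a rise of 1.50 ± 0.25 (adjusted p = 0.017). CCND1, cyclin D1, which opens the G1 phase of the cell cycle, read 216.4 and 209.9 untreated and 550.2 and 497.3 at 6 h (1.30 ± 0.29, adjusted p = 0.039). UPP1, a uridine phosphorylase, was the brightest riser of the list, from 2296.4 and 2138.3 to 3880.3 and 4208.4. VGF, a secreted neuropeptide precursor, read 84.1 and 102 untreated and 170.6 and 175.7 at 6 h and was detected on 1 of the 2 untreated arrays. SPHK1, the kinase that makes sphingosine-1-phosphate, rose by 0.76 and DUSP5, a nuclear phosphatase of ERK, by 0.69. The ETS factor ETV5, in contrast, read 3457.2 and 2895.7 untreated and 1754.1 and 1505.9 at 6 h (-0.96 ± 0.18, adjusted p = 0.025), and the small MAF factor MAFF fell by 1.08. Other feedback genes of the ERK pathway, DUSP6, SPRY4 and SPRY1, did not pass the test, with differences of 0.15 for DUSP6, 0.22 for SPRY4 and 0.16 for SPRY1.

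The immediate early transcription factors, which growth factors induce within the first hour, held no called rise at 6 h. Of 34 measured 0 were called higher, 3 fell (8.82%, against 1.07% of all genes measured) and the median was 0.13. At an unadjusted p under 0.05 in limma, 4 were higher and 7 lower. JUND, the AP-1 subunit linked to slow growth, read 4855.7 and 6176.4 untreated and 2953.1 and 2859.1 at 6 h (-0.91 ± 0.18, adjusted p = 0.027). BTG1, an antiproliferative protein, read 5982.7 and 6252.3 untreated and 3622.2 and 3304.5 at 6 h (-0.82 ± 0.17, adjusted p = 0.032). EGR1 (0.62, adjusted p = 0.60), FOS (0.36, adjusted p = 0.43) and JUN (-0.12, adjusted p = 0.82) were not called.

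Of the NF-kB list, 3 of 28 measured genes rose (10.7%, against 1.15% of all genes measured) and 0 fell, with a median of 0.09. CXCL8, the chemokine interleukin-8, read 173.2 and 123.7 untreated and 463 and 433.1 at 6 h. NFKBIA, the inhibitor that NF-kB itself induces, read 657.7 and 521.2 against 1009.3 and 1068.6, and IRF1 read 142.6 and 126.2 against 219.1 and 234. ISG20, an exonuclease, read 554.4 and 405.5 against 1098.3 and 831.8, and with IRF1 made up the calls among 38 genes of the interferon response (median -0.12). NFKBIA and IRF1, with ISG20, were the called named genes whose 6 h values did not lie beyond all other 8 arrays. NFKBIA read 914.6 and 1024.5 after 1 h of HGF. TNF receptors of the cell surface were called in 2 of 16 cases, both higher (12.5%, against 1.15% of all genes measured). TNFRSF12A, the TWEAK receptor, read 504.6 and 457.1 untreated and 1307.6 and 1353.3 at 6 h (1.47 ± 0.19, adjusted p = 0.0077), and LTBR, the lymphotoxin-beta receptor, rose by 0.85.

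MAT2A, which turns methionine into the methyl donor S-adenosylmethionine, had the largest rise of all kept probes. It read 288.6 and 219.6 untreated and 956.1 and 930.6 at 6 h, a rise of 1.91 ± 0.28 (3.75-fold, adjusted p = 0.0087). The HGF 6 h arrays lay near each other, and the highest of the other 8 arrays, ITGB4 replicate 1, read 390.3. The rest of the methionine cycle and polyamine enzymes did not rise with it. In a list of 23 measured genes MAT2A rose and CTH fell, with a median of -0.06. CTH, which makes cysteine from cystathionine, read 500.6 and 346.8 untreated and 197 and 139.6 at 6 h (-1.33 ± 0.27, adjusted p = 0.030). Serine and folate enzymes also went both ways, with 1 rise and 1 fall among 20 (median -0.12). GLDC, the glycine decarboxylase, read 100.1 and 84.4 untreated, with detection on 1 of these arrays, and 212.1 and 186 at 6 h. MTHFD2, a mitochondrial folate enzyme, read 1949.7 and 1874 untreated and 1199.8 and 1040.9 at 6 h. Among 29 enzymes of purine and pyrimidine synthesis CTPS1, which makes CTP, rose by 0.90 (adjusted p = 0.026), and among 29 of cholesterol and fatty acid synthesis HMGCS1 rose by 0.78 (adjusted p = 0.030).

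Ribosome assembly factors, which cut, modify and fold ribosomal RNA in the nucleolus, stood higher as a group. Among 72 measured, 15 rose (20.8%) and 0 fell, against 1.15% of all genes measured called higher by their brightest probe. Of the 72, 70 were detected on all 4 arrays. Calls of either direction were more frequent among brighter probes, up to 3.65% in a bin of signal. The median was 0.49 against -0.00 over all genes, 67 of the 72 were above 0, and the median within the replicate 1 and replicate 2 arrays was 0.49 and 0.52. Its sign was the same in all 25 alternative settings, in which it ran from 0.36 to 0.81. NOP56, a core protein of the box C/D particles that methylate ribosomal RNA, read 370.9 and 343.3 untreated and 852.2 and 853.7 at 6 h, a rise of 1.26 ± 0.16 (adjusted p = 0.0077). NOP16, a nucleolar protein of the large subunit, read 1039 and 854.2 untreated and 2025.2 and 2138.3 at 6 h. PES1, of the PeBoW complex of large subunit maturation, read 275.6 and 262.7 against 511.9 and 560.1. For all 3 genes the HGF 6 h arrays lay close to each other. They lay above both untreated arrays, a separation that all 267 called probes shared. UTP14A, of the small subunit processome, read 291.7 and 307 against 614.2 and 567.2, and NCL, nucleolin, 146.4 and 191.2 against 320.7 and 325.2. The other 10 called members, among them NOP2, RRS1, RRP12, NIP7 and SURF6, rose by 0.76 to 0.94. FBL, the methyltransferase that works beside NOP56, did not pass the test, at 2591.4 and 2967.2 untreated and 2666.8 and 2507.4 at 6 h.

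The parts of the ribosome itself did not move with its assembly factors. Of 67 cytosolic ribosomal proteins limma called 0 and 2 had an unadjusted p under 0.05, with a median of -0.00 and differences of -0.35 to 0.69. Of 76 mitochondrial ribosomal proteins limma called 0 as well, though 61 of them were above 0 (median 0.16, from 0.03 to 0.33 over 25 settings), and 18 had an unadjusted p under 0.05, all of them higher. Among 31 genes of RNA polymerases I and III, which transcribe ribosomal and transfer RNA, POLR1G rose from 199.8 and 201.1 to 381.2 and 415 (0.99 ± 0.18, adjusted p = 0.019), and the list had a median of 0.30 (0.10 to 0.43 over 25 settings). Translation initiation factors gave 2 rises among 39 (5.13%, against 1.15% of all genes measured). Their median was 0.15, which turned to -0.02 in the lowest of 25 settings. EIF4G1, the scaffold of the cap-binding complex, read 1029.8 and 1084 untreated and 1811.2 and 1896.9 at 6 h. EIF5, which triggers GTP hydrolysis at the start codon, rose by 1.08 on an isoform probe, while its probe for all isoforms, dimmer at a mean signal of 94.9, differed by 0.00. RNA-binding proteins of splicing rose in 2 of 46 cases (4.35%, against 1.15% of all genes measured). Their median was 0.21, from 0.09 to 0.40 over 25 settings. SFPQ, a paraspeckle protein, read 413.4 and 333.6 untreated and 1104.7 and 884.4 at 6 h (1.41 ± 0.29, adjusted p = 0.030), and the SR protein SRSF2 read 2077.2 and 1885.3 against 3518.7 and 4049.2. DDX39A, an RNA helicase of mRNA export, rose by 1.32 and RBM14, a paraspeckle protein, by 1.26. RAN, the GTPase of nuclear transport, read 307.6 and 279.8 untreated and 632.6 and 555.5 at 6 h, and was the called gene among 43 of its list.

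**Figure D3:**
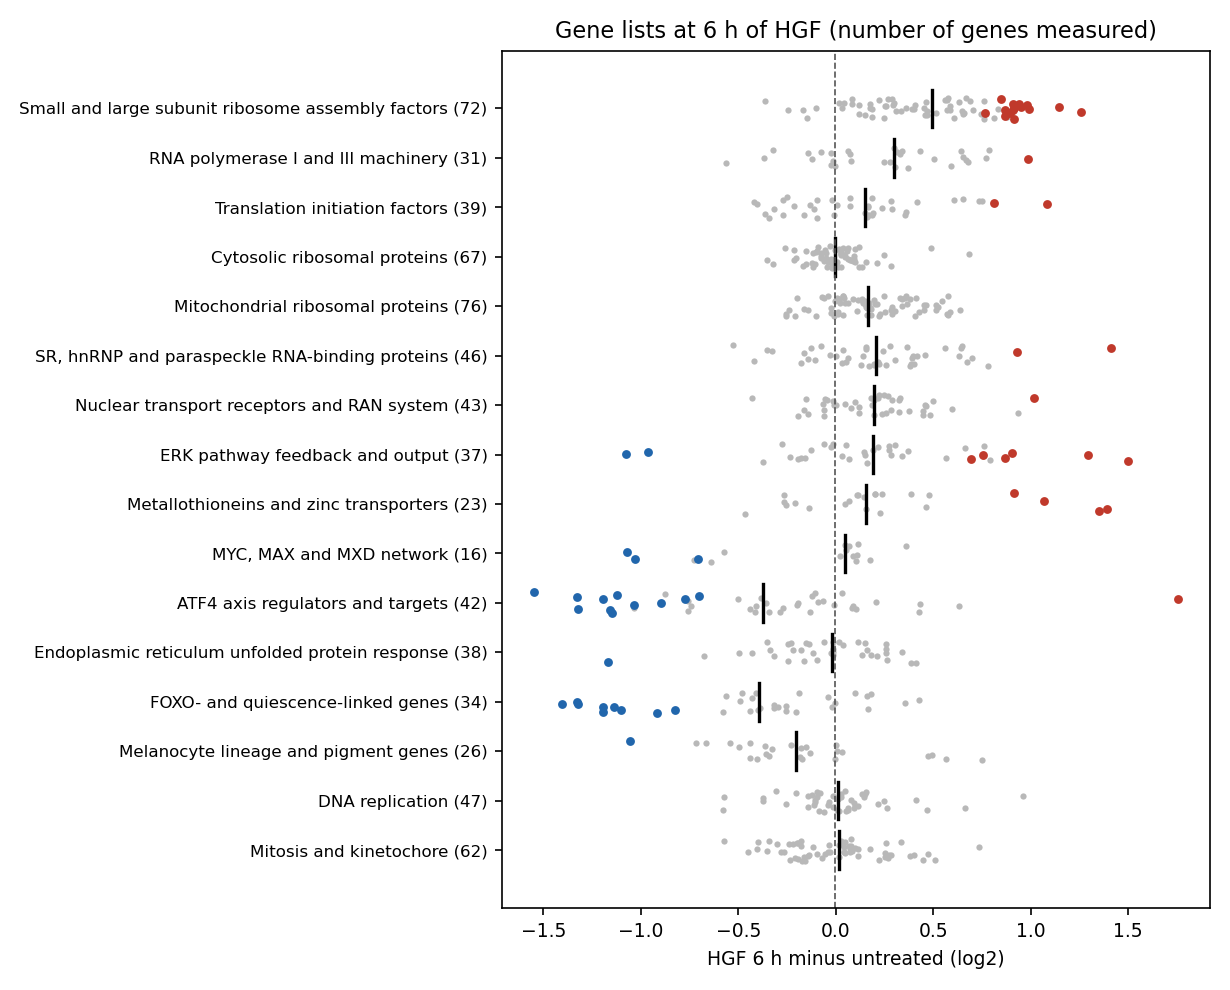
Each point is a gene, placed by its HGF 6 h minus untreated difference (log2) in the row of its list, with the number of genes measured in parentheses, called genes in red (higher) or blue (lower), the list median as a black bar and the median of all 10599 genes as a dashed line. The ribosome assembly factors lie to the right (median 0.49), the ATF4 axis (median -0.37) and the FOXO- and quiescence-linked genes (median -0.39) to the left, and the cytosolic ribosomal proteins around 0.

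The MYC network reads the E-box on DNA and is known to drive ribosome genes. Its called members were antagonists. MXD4, MNT and MXI1, repressors that compete with MYC for its partner MAX, fell among 16 measured genes. That was 18.8%, against 1.07% of all genes measured, and 0 rose (median 0.05). MXD4 read 590.6 and 537.5 untreated and 286.6 and 250.5 at 6 h (-1.07 ± 0.19, adjusted p = 0.019). MNT read 438.7 and 439.9 untreated and 237.5 and 194.6 at 6 h (-1.03 ± 0.17, adjusted p = 0.016). MXI1 read 660 and 572.4 untreated and 383.4 and 371.4 at 6 h, and was close to the threshold (-0.70, adjusted p = 0.0499). MYC did not pass the test, and its values were 2755.5 and 2318.3 untreated and 1725.4 and 1671 at 6 h (-0.57 ± 0.18, adjusted p = 0.13). MAX, near the detection limit, differed by 0.05 (adjusted p = 0.95).

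The sequence that MYC and its antagonists are known to bind is shown for RAN, UTP14A and EIF4G1, which rose, and for MNT, which fell, to set the motif beside changes in both directions. The sequences are from RefSeq (GRCh38.p14), lie before the first listed transcription start of each gene, and carry the E-box CACGTG, which reads the same on both strands, in capitals.
RAN (chr12:130871944-130871989, plus strand): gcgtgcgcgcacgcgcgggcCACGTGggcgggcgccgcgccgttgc
UTP14A (chrX:129905914-129905959, plus strand): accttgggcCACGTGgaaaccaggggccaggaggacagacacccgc
EIF4G1 (chr3:184314447-184314559, plus strand): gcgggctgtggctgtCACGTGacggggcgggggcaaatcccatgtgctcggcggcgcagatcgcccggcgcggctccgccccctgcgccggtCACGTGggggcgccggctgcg
MNT (chr17:2401228-2401273, minus strand): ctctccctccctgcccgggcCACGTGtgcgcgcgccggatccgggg
The E-box stood 102 bases before the start in RAN, 241 in UTP14A, 193 in MNT, and 144 and 67 in EIF4G1. In windows of 250 bases before to 50 after the start, CACGTG was found in 24 of 64 ribosome assembly genes with a promoter (37.5%), in 6 of the 13 called ones (46.2%), in 21 of 102 genes called higher (20.6%) and in 12 of 95 called lower (12.6%). The share was 10.3% of the 8719 measured genes with a promoter and 7.43% of all 27305 promoters. These shares are a description of letters, not of binding.

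Genes of the ATF4 axis stood lower as a group. ATF4 is the transcription factor made when amino acids run short or proteins misfold, and its targets supply amino acids and restore translation. Among its 42 measured genes there were 11 falls (26.2%) and 1 rise, against 1.07% of all genes measured called lower. The median was -0.37, 9 of the 42 were above 0, and the median ran from -0.47 to -0.29 over 25 alternative settings. ATF4 itself read 859.1 and 940.8 untreated and 390.2 and 437.1 at 6 h, a fall of 1.12 (SE 0.16, adjusted p = 0.0077). CHAC1, which breaks down glutathione and was the largest fall, read 313 and 347.1 untreated and 126 and 101.2 at 6 h (-1.55 ± 0.28, adjusted p = 0.019). NUPR1, a stress-induced nuclear protein, read 1506.5 and 1260.1 against 649.2 and 587.8. In each of these genes both 6 h arrays were below the lower untreated array, a separation that all 267 called probes shared.

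PCK2, the mitochondrial phosphoenolpyruvate carboxykinase, read 2023.5 and 1600.2 untreated and 932.3 and 710.3 at 6 h (-1.14 ± 0.24, adjusted p = 0.031). AARS1, the alanyl-tRNA synthetase, read 1336 and 2170.9 against 782.8 and 880.4, so that the untreated arrays differed from each other by more than the 6 h arrays did. DDIT3, the CHOP transcription factor of cell stress, fell from 682.8 and 713.9 to 458.9 and 402.8, and CEBPG, a partner of ATF4 on DNA, from 226.8 and 205.1 to 114.6 and 117.6. Several well known targets had low values that did not pass the test. TRIB3 read 2398.7 and 1568.8 untreated and 1039 and 862.9 at 6 h (-1.03, adjusted p = 0.057). ASNS, asparagine synthetase, read 3125.1 and 2076.9 against 1885.3 and 1226.3 (-0.74, adjusted p = 0.18). The cystine transporter SLC7A11 (0.03) and ATF3 (0.11, detected on 1 of the 4 arrays) lay near 0.

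ATF5, a factor related to ATF4, went the other way and had the smallest adjusted p of all probes. It read 126.7 and 127.5 untreated and 388.9 and 472.2 at 6 h, a rise of 1.75 ± 0.18 (adjusted p = 0.0032), and 102.8 to 159.4 on the other 6 arrays. Cytosolic aminoacyl-tRNA synthetases, many of which are ATF4 targets, were called in 2 of 19 cases (median -0.17), AARS1 lower and HARS1 higher (0.67). Of 18 amino acid transporters limma called 0 and 3 had an unadjusted p under 0.05, all lower, with a median of -0.00. The unfolded protein response of the endoplasmic reticulum, which shares ATF4 with the amino acid response, gave 1 fall among 38 (median -0.02). That gene was HERPUD1, a membrane protein of the degradation machinery there, at 623.3 and 475.1 untreated and 241.3 and 243.6 at 6 h. CREBRF, a regulator of that response, read 171.2 and 153.3 untreated, fell under the detection limit at 6 h (75.8 and 73.7) and was at least 1.77-fold lower.

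**Figure D4:**
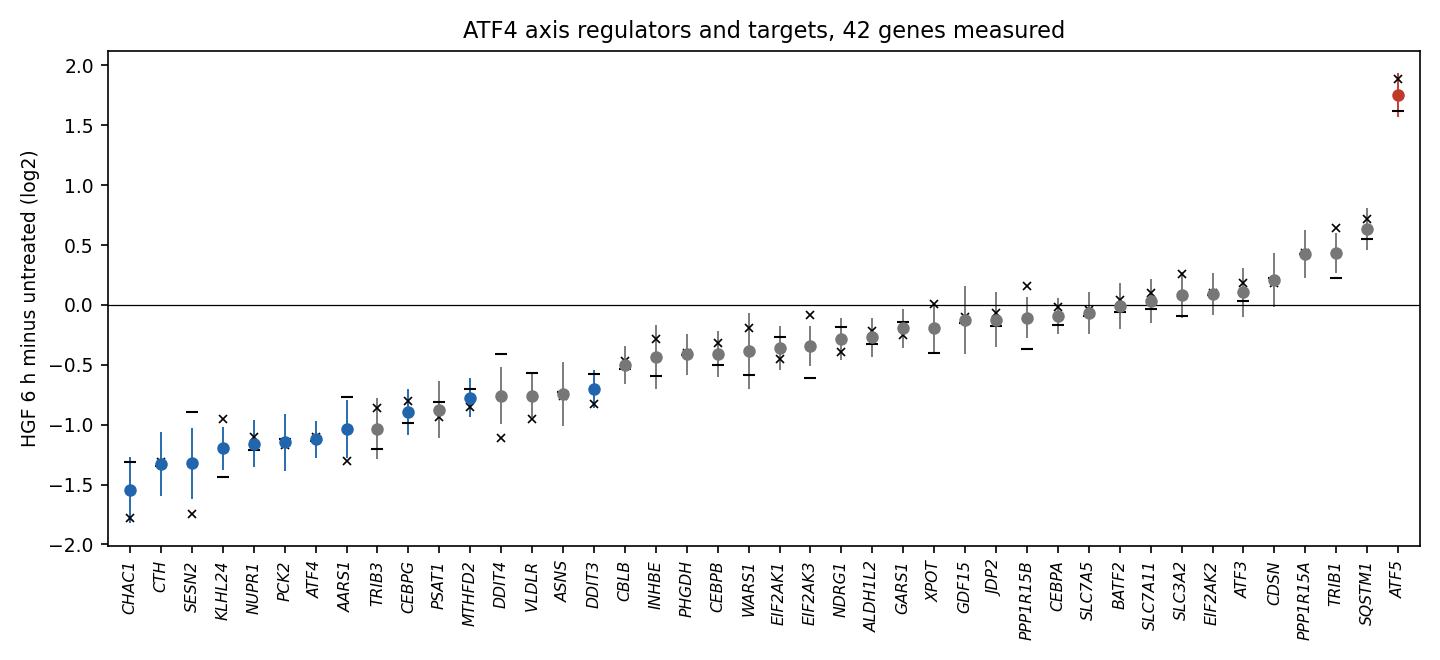
The 42 measured genes of the ATF4 axis in order of their HGF 6 h minus untreated difference (log2, vertical axis), as points with the SE of the fit (n = 2 arrays per group), red or blue where called, with dashes for the replicate 1 difference and crosses for the replicate 2 difference. CHAC1 lies lowest at -1.55, ATF5 stands apart at 1.75, and SESN2 shows the gap between its pairs (-0.89 and -1.75).

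The site that ATF4 is known to use, the amino acid response element, has the core TGATGNAAN. It is shown for CHAC1, AARS1 and HERPUD1, which fell and whose promoters hold the same 9 letters GTTGCATCA, the core read from the other strand (RefSeq, GRCh38.p14, core in capitals).
CHAC1 (chr15:40953241-40953289, plus strand): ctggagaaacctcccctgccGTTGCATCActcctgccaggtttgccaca
AARS1 (chr16:70289666-70289714, minus strand): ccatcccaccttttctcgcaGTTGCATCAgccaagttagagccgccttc
HERPUD1 (chr16:56931945-56931993, plus strand): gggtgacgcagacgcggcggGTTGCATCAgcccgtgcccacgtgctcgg
The core lay 210, 188 and 177 bases before the start. On both strands it was found in 6 of 35 genes of the ATF4 axis with a promoter (17.1%), in 4 of 95 genes called lower (4.21%) and in 2 of 102 called higher (1.96%), against 1.85% of measured genes and 3.67% of all promoters. Its matches overlapped an E-box in the promoters of 4 measured genes. Of the 11 called genes of the axis with a promoter, 2 held it.

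Genes linked to FOXO factors and to the resting state fell as well. FOXO factors are active when PI3K-AKT signalling is low, and their targets slow growth and break down protein. There were 9 falls (26.5%) and 0 rises among 34 measured genes, against 1.07% of all genes measured called lower. The median was -0.39, from -0.50 to -0.30 over 25 settings, and 6 of the 34 were above 0. The YPEL family of small zinc-binding proteins gave 3 of these falls. YPEL5 read 1150 and 860 untreated and 435.5 and 325.4 at 6 h (-1.40 ± 0.26, adjusted p = 0.022). YPEL3 read 538.3 and 621.9 untreated and 238.4 and 223.2 at 6 h (-1.33 ± 0.18, adjusted p = 0.0077). YPEL4 read 270.8 and 218.3 against 116.9 and 104.2, while YPEL2 differed by -0.00.

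The muscle-wasting ubiquitin ligases FBXO32 and TRIM63, which FOXO factors induce, both fell. FBXO32 read 490.6 and 723.4 untreated and 269.6 and 252.5 at 6 h (-1.19 ± 0.23, adjusted p = 0.026), and TRIM63 read 347.5 and 331.5 against 168.7 and 192. An isoform probe of FBXO32, at a mean signal of 130.5, differed by -0.45 and did not pass the test. SESN2, which restrains mTORC1 when leucine is low, read 299.7 and 374 untreated and 161.4 and 111.3 at 6 h. KLHL24, a ubiquitin ligase adaptor, read 246.1 and 200.5 untreated and 91 and 103.4 at 6 h, with detection on 1 of the 2 HGF 6 h arrays. SESN2 and KLHL24 also stand in the ATF4 list, so the counts of the lists share these 2 genes. TP53INP1, an autophagy and p53 effector, read 362.9 and 255.9 against 135.7 and 148.3, and RBL2, the pocket protein p130 that represses cell cycle genes in resting cells, 387 and 352 against 196.3 and 221.6. DEPTOR, an inhibitor of mTOR that no list held, read 316.5 and 307.1 untreated and 125.6 and 137.6 at 6 h (-1.25 ± 0.17, adjusted p = 0.0077). FOXO1 (0.18), FOXO3 (-0.04, detected on 2 of the 4 arrays), TXNIP (-0.20) and CDKN1B (-0.32) did not pass the test. Of 56 lysosome and autophagy genes GABARAPL1, of the family that coats autophagosomes, fell from 335.3 and 289.7 to 147.4 and 142.6, as the called gene of the list (median -0.10).

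The cell cycle machinery held few calls. Of 26 G1 cyclins, kinases and inhibitors CCND1 rose and RBL2 fell. Of 47 DNA replication genes and 62 genes of mitosis and the kinetochore limma called 0, with medians of 0.01 and 0.02, and 7 and 3 had an unadjusted p under 0.05. RMI2, a member of the BLM helicase complex, read 684.3 and 947.1 untreated and 342.9 and 350.6 at 6 h.

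The called genes of metal handling were the metallothioneins MT1X, MT2A and MT1H, small proteins that bind zinc and copper, and the zinc exporter SLC30A1, all higher. The list of metallothioneins and zinc transporters, with 23 measured genes, held 4 rises (17.4%) and 0 falls, against 1.15% of all genes measured called higher. Its median was 0.15, from -0.00 without HGF 6 h replicate 2 to 0.39 in the authors' normalised table. MT1X read 198.4 and 213.9 untreated and 535.9 and 543.4 at 6 h (1.39 ± 0.18, adjusted p = 0.0077). MT2A, the brightest of them, read 1245.8 and 1443.7 untreated and 3114.1 and 3764.2 at 6 h (1.35 ± 0.17, adjusted p = 0.0077). MT1H read 136.3 and 165.8 against 273 and 294.1. SLC30A1, which carries zinc out of the cell, read 77.2 and 82.7 untreated, below detection, and 174.7 and 160.7 at 6 h, and was at least 1.85-fold higher. MT1G (0.20) and MT1E (0.14, detected on none of the 4 arrays) did not pass the test. Metallothionein genes are close copies of each other, and how far each probe tells them apart is not given in the sources used here, so MT1X, MT2A and MT1H are not 3 separate observations with certainty. Of 9 zinc importers of the SLC39 family limma called 0 and 1 had an unadjusted p under 0.05, with differences of -0.46 to 0.47.

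Metallothionein promoters are known for metal response elements, bound by the zinc sensor MTF1. The form TGCGCNC of their core is in capitals in the stretches of the 3 metallothioneins that rose (RefSeq, GRCh38.p14). Other forms of the core, such as TGCACNC, were neither searched nor marked.
MT1X (chr16:56682305-56682438, plus strand): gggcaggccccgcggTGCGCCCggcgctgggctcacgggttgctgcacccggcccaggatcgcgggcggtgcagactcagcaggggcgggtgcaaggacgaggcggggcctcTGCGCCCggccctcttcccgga
MT2A (chr16:56608416-56608466, plus strand): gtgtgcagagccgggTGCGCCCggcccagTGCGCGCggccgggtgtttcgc
MT1H (chr16:56669639-56669813, plus strand): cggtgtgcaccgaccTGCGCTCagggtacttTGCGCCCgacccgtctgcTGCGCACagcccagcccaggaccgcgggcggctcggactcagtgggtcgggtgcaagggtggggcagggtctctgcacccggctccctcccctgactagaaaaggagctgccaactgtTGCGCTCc
MT1X and MT2A held 2 matches to TGCGCNC each and MT1H held 4, all 3 genes lying on chromosome 16. The SLC30A1 window held no match to this form. TGCGCNC is short and common, since at least 1 match on either strand was found in 30.2% of measured genes, 37.3% of genes called higher, 25.3% of those called lower and 20% of all promoters. Its matches overlapped an E-box in 40 measured genes.

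MITF, the master regulator of melanocytes, was the called gene among 26 of the lineage and of pigment (median -0.21, from -0.37 to -0.10 over 25 settings). Its probe for all isoforms read 1702.3 and 1970.6 untreated and 1008.3 and 769.2 at 6 h (-1.06 ± 0.23, adjusted p = 0.036), while its 2 isoform probes, at mean signals of 92.6 and 83.4, differed by 0.10 and 0.08. TYRP1, the brightest pigment enzyme, read 11174.1 and 11347 untreated and 6886.3 and 7344.6 at 6 h (-0.66, adjusted p = 0.057). SOX10 (-0.33) and PAX3 (-0.15, detected on 1 of the 4 arrays), which drive MITF, and the pigment cell antigen MLANA (-0.13) did not pass the test. SNAI2, a repressor active in neural crest and melanoma cells, read 1508.3 and 1675.1 untreated and 807.9 and 818.2 at 6 h and was the called gene among 19 of epithelial-mesenchymal transition.

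Of 27 histone demethylases and PHD readers 2 fell (7.41%, against 1.07% of all genes measured) and 0 rose. The median was -0.17, and differences ran from -1.28 to 0.77. PHF21A, a reader of unmodified histone H3 in the LSD1 complex, read 527.1 and 607.3 untreated and 241 and 224.8 at 6 h (-1.28 ± 0.18, adjusted p = 0.0077), and KDM5B, a histone demethylase, read 391.8 and 400.4 against 229.1 and 210.3. Genes of other kinds were among the largest falls. FOXN3, a forkhead repressor, fell on both of its probes, by 1.17 and 0.76. EPHA3, an ephrin receptor, read 677.1 and 611.2 untreated and 304.4 and 267.1 at 6 h. COL4A5, a basement membrane collagen, read 373.3 and 252.4 against 155.9 and 120.8. SATB1, a chromatin organiser, read 225 and 197.8 untreated and 79.6 on both HGF 6 h arrays, and LDB2, a LIM domain-binding cofactor, 233.5 and 217.4 against 83 and 75.9. Both genes fell under the detection limit at 6 h, SATB1 being at least 2.31-fold and LDB2 at least 2.47-fold lower. PCMTD1 (at least 2.06-fold lower) and the lectin CLEC2D (at least 1.72-fold lower) left detection in the same way. In all, 220 kept probes were detected on both untreated and neither HGF 6 h array and 67 the other way, of which 14 and 4 were called, and HGF 6 h replicate 1 had fewer probes detected than the other 3 arrays. In the smaller lists, CIART, a repressor of the circadian clock, fell by 0.84 among 17 clock genes (median -0.26, from -0.53 to -0.02 over 25 settings), and ID4, an inhibitor of helix-loop-helix factors, by 0.72 among 28 of the ID and TGF-beta list (median -0.16).

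Among genes with large rises outside the lists, TM4SF1 and TM4SF19, membrane proteins of the same 4-transmembrane family, read 705.4 and 419.8 against 1439.9 and 1242.8, and 704.1 and 603.7 against 1416.2 and 1988.5. In both genes the lower HGF 6 h array was above the higher untreated array, which their choice among the largest rises required.

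Where a called gene had further probes, they did not always follow. The 24 called genes with another kept probe had 30 such probes, of which 21 (70%) had the same sign, against 60.9% of all 1037 probe pairs of a gene, and 2 were called in the same direction (FOXN3 and NBR1) and 0 in the opposite. CTH fell on its probe for all isoforms and differed by -0.13 on an isoform probe at a mean signal of 147.

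Of the 72 called genes named by rule, 69 had both HGF 6 h arrays beyond all other 8 arrays, on the side of their call. MAT2A read 239.6 and 302.9 at 1 h and 189.1 and 138.3 at 24 h. CHAC1 read 655.1 and 401.3 at 1 h and 261 and 399.9 at 24 h, so its lowest values were those at 6 h. YPEL3 read 827.6 and 707.7 at 1 h and 726.2 and 894.7 at 24 h. All times were set against the same 2 untreated arrays, and no difference between times was tested.

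**Figure D5:**
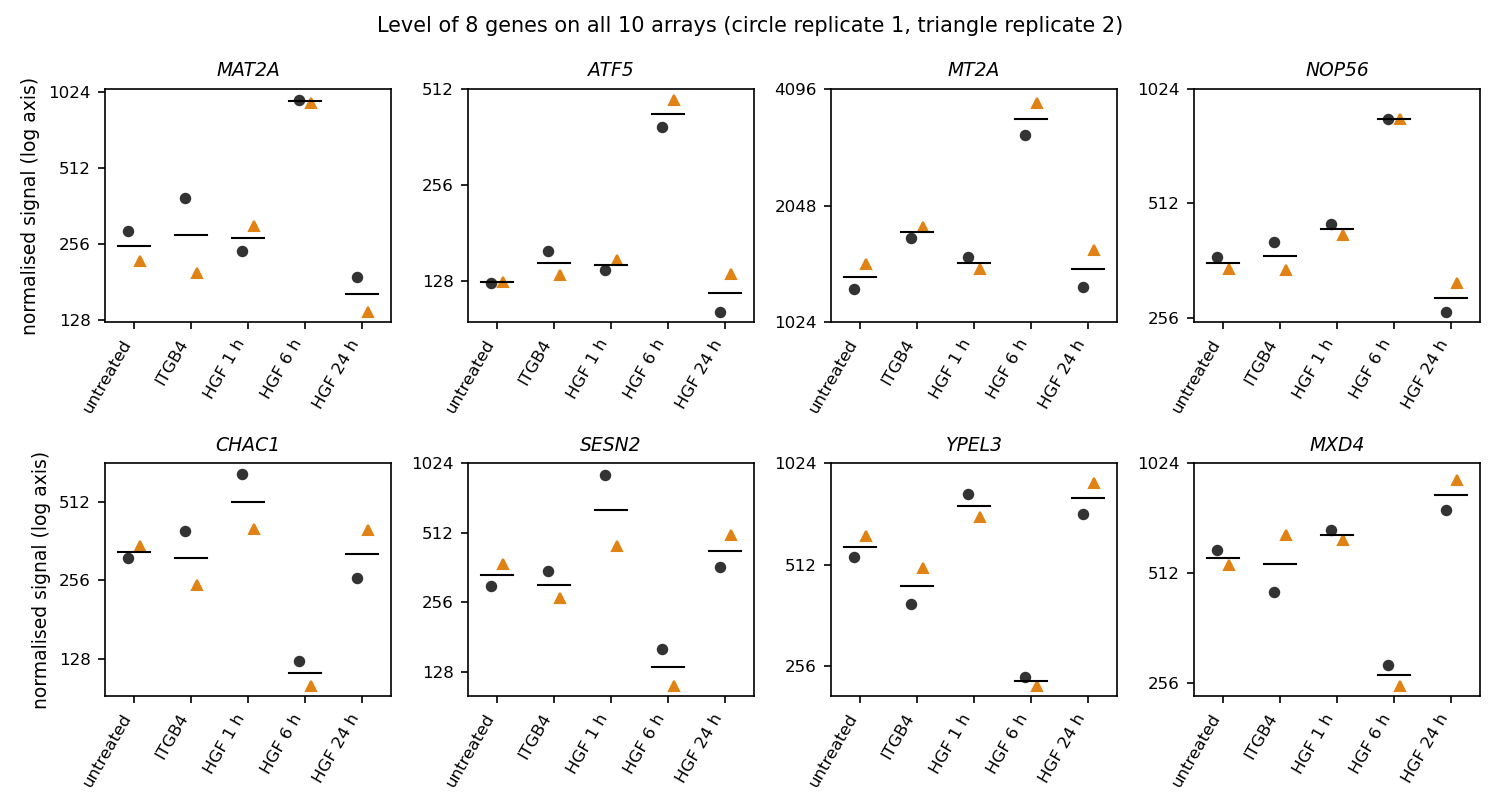
Normalised signal (vertical log axes, arbitrary units) of 8 genes on all 10 arrays, with groups along the horizontal axis, circles for replicate 1, triangles for replicate 2 and bars for the mean of the log2 values. In MAT2A, ATF5, MT2A and NOP56 the HGF 6 h arrays lie above, and in CHAC1, SESN2, YPEL3 and MXD4 below, all other 8 arrays.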

How the data were processed

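RNA samples of MDA-MB-435 cells, 10 in 5 groups of 2, had been hybridised to Illumina Human-8 BeadChips, 1 colour, and read with BeadStudio 1.5.1.3 per the submitters' processing notes. The deposited intensity values are mean bead brightness per probe, neither background subtracted nor normalised. The deposited detection score is a fraction from 0 to 1 against negative control probes, and the deposited bead number is a count of beads behind each signal. A series table of intensity values, which the authors had background subtracted and rank-invariant normalised, served as an alternative (floor 16). No read depth exists for arrays, and 2 arrays a group limit the precision.

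Of 24136 probes, 22 controls and 9 without an intensity were left out, and 14018 (58.2%) with a detection score of at least 0.99 on at least 1 array were kept after quantile normalisation and log2. Symbols came from GEO's platform annotation, updated through RefSeq identifiers. Of the kept probes 11466 carried a symbol, for 10599 genes, 722 of which had several probes. Group means were fitted with limma 3.58.1 in R 4.3.3 over all 10 arrays (lmFit, eBayes, 5 residual and 8.16 prior degrees of freedom), with Benjamini-Hochberg adjusted p under 0.05 over all kept probes. At this threshold limma called 267 probes, and 2236 had an unadjusted p under 0.05. The scripts were tested on simulated data. Lists use the brightest probe of a gene and may share genes.

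Genes were named by a rule. It took the 15 largest called rises and falls that were detected on all 4 arrays and had groups that did not overlap. It also took up to 5 called members of each of 45 lists and up to 6 called genes detected in 1 group only. Up to 5 genes with opposite differences in the pairs, and MET, HGF and ITGB4, completed it. Further genes, among them UPP1, SPHK1, DUSP5, ATF4, DDIT3, CEBPG, NBR1 and all genes given with values that did not pass the test, were chosen after their values were seen. The comparison, the lists and the rule were chosen with earlier results of these data known. For a gene undetected in a group, the fold is a bound against the higher of its own signal and the lowest detected signal of each array. Motifs were searched on both strands of RefSeq promoters, which 8719 measured genes had, and 5191 of 27305 genes in the table had more than 1 start, of which the first was used.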

Additional observations from a re-analysis of the deposited data

How the results depend on the processing

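The number of called probes (267, 136 higher and 131 lower) depended on the background correction and on the arrays. Normexp background correction left 51 (18 and 33), and an ordinary pooled-variance test without moderation left 0 (0 and 0), with 2139 at an unadjusted p under 0.05. Median centring gave 42 higher and 204 lower probes. A fit on the 4 arrays alone, with the other arrays still in the normalisation and the probe filter, gave 145 (68 and 77). Keeping only probes detected on all 4 arrays gave 207 higher ones. Cyclic loess, the authors' normalised table, no filter, detection on at least 2 arrays, the 8 untreated and HGF arrays and a trend of the prior variance gave 185 to 329 probes. Leaving out 1 array at a time moved the count from 0 to 490, the higher ones from 0 to 243 and the lower ones from 0 to 247. The lowest counts came without 1 of the 4 arrays compared (28 or fewer), and without HGF 6 h replicate 2 limma gave 1564 at an unadjusted p under 0.05. In these fits the lone array is assumed to vary like the other groups.

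With the replicate number as a block 1089 probes were called over all 10 arrays (514 higher, 575 lower) and 1008 over the 8 untreated and HGF arrays (491 and 517). A block over only the 4 arrays compared, added after the data were seen, gave 2836 (1239 and 1597). A block for arrays of low detection score gave 1066 (505 and 561). Deviations of same-numbered untreated and HGF 6 h arrays correlated at 0.59 across probes, and those of all group pairs at -0.06 to 0.66. With HGF 24 h the correlation was 0.66 for untreated and 0.65 for HGF 6 h. It was near 0 for HGF 1 h with ITGB4 (-0.06) and with HGF 24 h (0.06). What a replicate number shares is not given in the sources used here, so the pairing was not established and the unblocked fit was kept. Genes that did not pass the test in the unblocked fit may pass under a block. All 267 probes were among the calls under each block.

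None of the 79 genes named by rule changed sign with a call. Over these genes and all settings that left out no array, 945 results kept their side of the threshold and 228 missed it, and with 1 array left out 472 did and 318 did not. The medians of all lists but those of the ATF4 axis and of FOXO- and quiescence-linked genes moved by over 1.5 times in at least 1 setting.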

Other observations

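Further called genes, picked from the calls after their values were seen, are given as values only, and nothing is said of the classes they belong to. Of enzymes that modify transfer RNA, the called ones had differences of 0.94 for the pseudouridine synthase PUS1, 0.93 for the methyltransferase METTL1 and 0.86 for the dihydrouridine synthase DUS3L. PUS1 read 402.2 and 301.4 untreated and 633.7 and 708.9 after 6 h of HGF. The groups did not overlap in any of these genes, as in all 267 called probes and in 44.6% of all kept probes. Called nucleolar proteins not in the ribosome list were DHX37 (1.14), GRWD1 (1.11), CCDC86 (0.97), PINX1 (0.81), DDX51 (0.70) and DHX33 (0.65). DHX37 read 248.6 and 263.5 untreated and 548.5 and 581.5 at 6 h. DOHH (0.76) and DPH7 (0.67), which act in the synthesis of hypusine and diphthamide, rare amino acids of translation factors, rose too.

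In mitochondria, SCO2, a copper chaperone of cytochrome oxidase, read 371.8 and 366.5 untreated and 846.8 and 844.4 at 6 h (1.20), while the 64 measured genes of oxidative phosphorylation held 0 calls in limma, with 1 at an unadjusted p under 0.05. PPIF, cyclophilin D of the permeability pore, rose by 1.20, NDUFAF4, an assembly factor of complex I, by 0.74, and PDSS1, of coenzyme Q synthesis, by 0.73. The redox genes SRXN1 (1.02) and GCLM (0.81) rose, as did the purine nucleoside phosphorylase PNP (1.02). Among RNA processing genes, WDR77 rose by 1.01, GEMIN4 by 0.95, WTAP by 0.84, TOE1 by 0.81, U2AF1 by 0.69 and CSTF2 by 0.68, and a second probe of WTAP differed by -0.13.

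Further falls included the RAS-related GTPase DIRAS1, at 202.1 and 281.8 untreated and 91.1 and 99.4 at 6 h (-1.33), and the zinc finger protein ZNF521 (-1.13). The erythropoietin receptor EPOR (-1.05), the kinase subunit PIK3CD (-0.95), the collagen receptor DDR2 (-0.85), the repressor HBP1 (-0.81), the sugar transferase OGT (-0.77) and the Polycomb protein CBX7 (-0.76) also fell. NBR1, an autophagy receptor, fell by 1.07 and by 0.94 on 2 of its 3 probes and differed by 0.04 on the other.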
